A study of Mus musculus with 5 samples.

Results

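Retinoic acid genes were examined in 2 regions of the embryonic mouse cortex, medial and lateral, at stage E14.5, in midgestation. The 9 genes, Aldh1a2, Aldh1a3, Cyp26b1, Stra6, Crabp1, Crabp2, Rara, Rarb and Rarg, were taken by symbol from the 34590 gene symbols of the count files, and all 9 were found. There were 3 libraries of medial cortex and 2 of lateral cortex. All came from wild-type, untreated embryos of a mixed strain background and were taken by dissection, and polyadenylated RNA was sequenced without keeping the strand. Whether each library is a different embryo is not stated in the labels, and the p-values reflect only the variation among these 5 samples, which may be technical.

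Retinoic acid is a small signalling molecule made from vitamin A. Retinol circulates on the carrier Rbp4, enters cells through the receptor Stra6, is oxidised to retinal by dehydrogenases such as Rdh10, and is turned into retinoic acid by the retinaldehyde dehydrogenases Aldh1a1, Aldh1a2 and Aldh1a3. Crabp1 and Crabp2 bind retinoic acid inside the cell, the receptors Rara, Rarb and Rarg act with RXR partners on target genes, and Cyp26 enzymes break the molecule down. In the mouse forebrain the meninges are a known source of retinoic acid through Aldh1a2.

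Medial libraries held 27406370 to 36460274 reads in genes, and lateral libraries 56147129 to 66981952. Levels are given in CPM, the reads of a gene scaled to a common library size, with sizes adjusted by TMM, a normalisation that assumes most genes do not change. The tissue label was checked with 10 genes of cortical progenitors and neurons, among them Emx1 and Pax6. The summed level of the 10 was between 1362 and 2126 CPM in medial and between 2740 and 2964 CPM in lateral libraries. Of the 10, 5 had all medial libraries lower and 2 had all medial libraries higher. Among all genes tested, 26.7% had all medial libraries lower and 26.5% had all medial libraries higher. Neurod6, the most abundant of the 10, averaged 386 CPM in medial and 1054 CPM in lateral cortex. Emx1 (102 against 79.6 CPM) and Pax6 (215 against 174 CPM) averaged higher in medial cortex. Medial library 1 stood apart from the other libraries. In it 371 of 16229 genes tested (2.29%), a count made for this library alone, were at least 2-fold above every other library. The summed level of 14 meningeal genes was 359 CPM there and between 28.1 and 52.2 CPM in the other 4 libraries, and 9 of the 14 were at least 2-fold above every other library, among them the collagen genes Col1a1, Col1a2 and Col3a1, while the meningeal transporter genes Slc6a13 and Slc22a6 were at 0.278 CPM or less in every library. Of 8 genes of the hem, a source of Wnt and Bmp signals beside the hippocampal field, 5 stood out in the same way. Values without medial library 1 are therefore given beside the results that rest on it.

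Of the 9 genes, 8 had enough reads to be tested, and 1 of these, Cyp26b1, passed the threshold, an adjusted p of 0.05 in edgeR's quasi-likelihood test over all 16229 genes. The other 7 did not pass. In the same comparison 9.72% of all genes tested were called, 4.62% higher and 5.1% lower in medial cortex, so 1 call in 8 is near the background. Medial and lateral libraries were fully separated in 5 of the 8, Cyp26b1, Crabp1 and Crabp2 with all medial libraries higher and Rara and Rarg with all medial libraries lower. Among all genes tested the groups did not overlap in 53.3%, with medial libraries higher in 26.5% and lower in 26.7%, so this count is near the background too. The median log2 fold change of the 8 was 0.52, beside 0.01 for all genes tested. Without medial library 1, Rara was at −0.75, Rarg at −0.50, Aldh1a3 at −0.35 and Stra6 at 0.09. Rarb was then at 0.11, Crabp1 at 0.55, Crabp2 at 1.66 and Cyp26b1 at 5.84, so the median lay between Stra6 and Rarb.

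**Figure D1:**
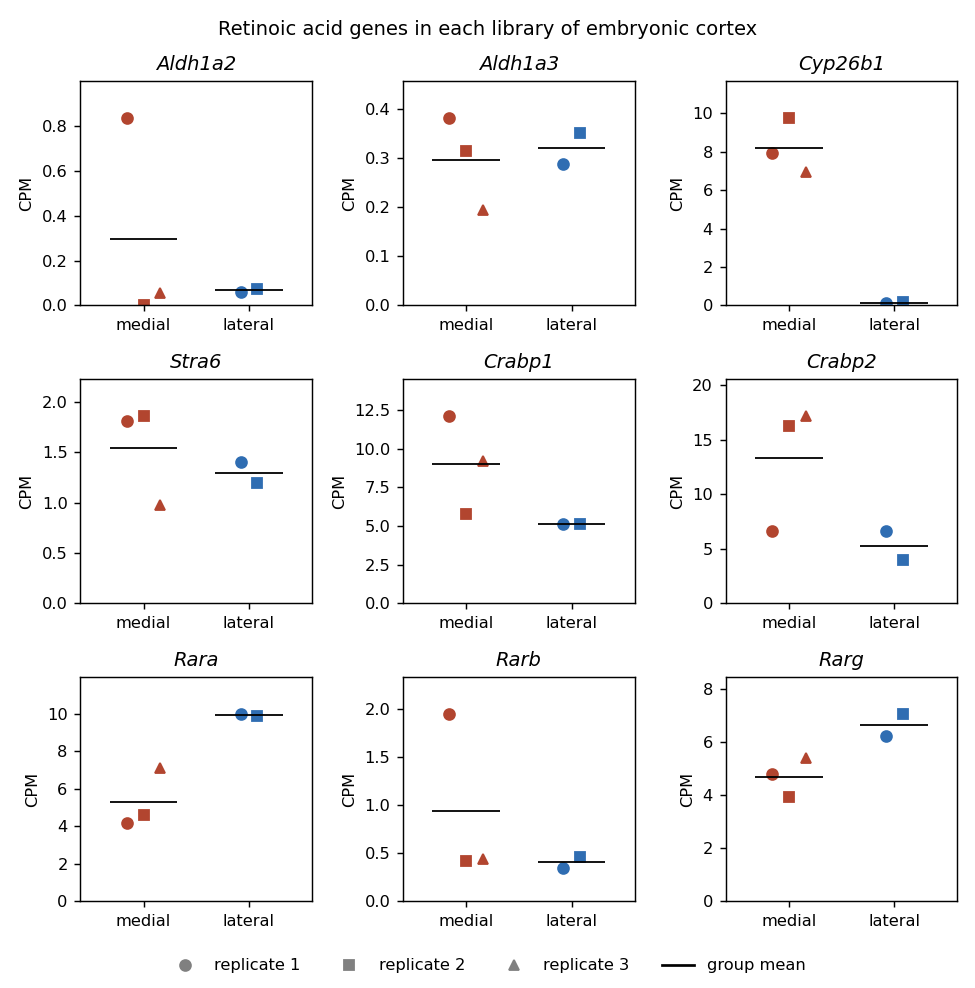
CPM of the 9 retinoic acid genes (vertical axes, each from 0) in medial libraries, left in each panel, and lateral libraries, right; a symbol is 1 library and a line the group mean. Cyp26b1 was at 6.93 CPM or more in all medial libraries and at 0.186 CPM or less in both lateral ones, and Rarb and Aldh1a2 were high in medial library 1 alone.

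Cyp26b1, the enzyme that clears retinoic acid by oxidation, was the member with the largest difference. Cyp26b1 had 7.91, 9.72 and 6.93 CPM in medial libraries 1 to 3 (228, 278 and 249 reads), against 0.106 and 0.186 CPM in lateral libraries 1 and 2 (7 and 10 reads). The 3 medial libraries lay within 1.40-fold of each other and far above both lateral ones. It averaged 8.19 ± 1.42 CPM in medial (SD, n = 3) and 0.146 ± 0.0561 CPM in lateral cortex (SD, n = 2). The log2 fold change was 5.81 (SE 0.34, edgeR adjusted p = 0.0104), a 56.1-fold higher level in medial cortex and the 13th largest among the genes tested. Only 17 lateral reads stand behind that fold, and the ratio of summed reads per depth had a 95% exact interval from 35.3 to 98.2, which covers counting error only. In bulk tissue, fewer cells with the transcript and less RNA per cell cannot be told apart, here and for every gene below.

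The high level of Cyp26b1 was present in all 3 medial libraries. Its log2 fold change was 5.84 without medial library 1 (edgeR adjusted p = 0.0054) and between 5.43 and 6.22 with any 1 library left out. The call was lost without medial library 2 (log2 fold change 5.67, edgeR adjusted p = 0.0740), lateral library 1 (5.43, edgeR adjusted p = 0.0518) or lateral library 2 (6.22, edgeR adjusted p = 0.149), fits in which 0, 18 and 0 of all genes passed. The hem genes, at a summed 115 to 332 CPM in medial and 5.42 to 6.33 CPM in lateral libraries, differed between the regions in the same direction, with all 8 of 8 called higher in medial cortex. Wnt8b, a hem ligand, had 117, 30.5 and 22.1 CPM in medial, against 0.213 and 0.0371 CPM in lateral libraries. Bmp7, the hem gene with the lowest adjusted p, was more even within medial cortex. It had 18.6, 17.9 and 15.2 CPM in medial, against 1.75 and 1.19 CPM in lateral libraries. Both were highest in medial library 1, and Cyp26b1 was highest in medial library 2. Markers of Cajal-Retzius neurons, which arise in part from the hem, summed to 500 to 612 CPM in medial and 160 to 197 CPM in lateral libraries, with 6 of 6 called higher. Genes of the thalamus, which lies close to the medial cortex, summed to 59.0 to 78.8 CPM in medial and 8.80 to 17.0 CPM in lateral libraries, most of it in medial libraries from Lhx9, the 1 of 3 tested that was called higher. Barhl2 had all medial libraries higher without passing (0.729 to 1.14 CPM, against 0.213 and 0.483 CPM in lateral libraries, edgeR adjusted p = 0.0711). Tcf7l2 overlapped between the regions (log2 fold change 0.24), and Gbx2 and Foxb1 were at 0.0694 CPM or less in every library. The part of these cells in the Cyp26b1 result was not tested.

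The other Cyp26 enzymes were at or near the floor. Cyp26a1, which is induced by retinoic acid in many embryonic tissues, had 1 read in the 3 medial and 3 reads in the 2 lateral libraries. Cyp26c1 had 9 reads in medial and 4 in lateral libraries. At 3 reads, taken as the floor of a library, a gene has 0.0834 to 0.105 CPM in medial and 0.0456 to 0.0557 CPM in lateral libraries. Neither gene was tested.

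The enzymes that make retinoic acid had few reads. Aldh1a2, which is known for its expression in the meninges, had 24, 0 and 2 reads in medial libraries 1 to 3 and 4 reads in each lateral library, and was left out of the test by the filter on low counts. That is 0.833, 0 and 0.0556 CPM in medial, against 0.0608 and 0.0743 CPM in lateral libraries. Of 34 reads over all libraries, 24 lay in medial library 1, the library with the high meningeal genes. The count of 0 in medial library 2 allows up to 0.105 CPM. Outside medial library 1 Aldh1a2 was thus near the floor at this depth, and a difference between the regions was not tested there.

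Aldh1a3, the enzyme of the lateral ganglionic eminence and the eye, had 0.382, 0.315 and 0.195 CPM in medial (11, 9 and 7 reads), against 0.289 and 0.353 CPM in lateral libraries (19 reads each). The groups overlapped, with a log2 fold change of −0.13 (SE 0.39, edgeR adjusted p = 0.843). Its sign turned when medial library 3 or lateral library 2 was left out (0.13 and 0.00). Aldh1a1, the remaining enzyme of the family, had 9 reads in medial and 2 in lateral libraries. Genes of the subpallium and of GABAergic neurons, tissue next to the lateral cortex, summed to between 2.87 and 16.9 CPM in medial and between 65.9 and 95.1 CPM in lateral libraries, and 6 of 8 tested were lower in medial cortex, while Gsx1 and Gsx2, the subpallial progenitor factors on that list, were at 0.111 CPM or less in every library.

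Stra6, the receptor that moves retinol from Rbp4 into cells, had 1.80, 1.85 and 0.974 CPM in medial, against 1.40 and 1.19 CPM in lateral libraries. Medial library 3 was the lowest of all 5 and medial libraries 1 and 2 the highest, so the groups overlapped. Its log2 fold change of 0.22 did not pass (SE 0.33, edgeR adjusted p = 0.680).

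Crabp1 and Crabp2, the small proteins that bind retinoic acid in the cytoplasm, were both above lateral levels in all medial libraries. Neither passed edgeR's test of all 5 libraries without a block. Crabp1 had 12.1, 5.81 and 9.21 CPM in medial (348, 166 and 331 reads), against 5.15 and 5.14 CPM in lateral libraries (339 and 277 reads). Medial library 2 came close to the lateral level, and the medial libraries spread over 2.08-fold. Its log2 fold change was 0.81 (SE 0.31, edgeR adjusted p = 0.132), and 0.55 without medial library 1 (edgeR adjusted p = 0.183).

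Crabp2 had 6.66, 16.3 and 17.1 CPM in medial (192, 465 and 616 reads), against 6.61 and 3.94 CPM in lateral libraries (435 and 212 reads). Here medial library 1 was at the level of lateral library 1, and medial libraries 2 and 3 were far above both lateral ones. The medial libraries spread over 2.57-fold, and the log2 fold change was 1.34 (SE 0.45, edgeR adjusted p = 0.106). Without medial library 1 it was 1.66 and passed (edgeR adjusted p = 0.0230), in a fit that called 13.2% of all genes tested and 2 of the 8 retinoic acid genes, Crabp2 and Cyp26b1. The order of the carriers differed between libraries. Per kb of exon, Crabp1 was above Crabp2 in medial library 1 (15.1 against 5.04 CPM per kb), and below it in medial library 2 (7.24 against 12.3 CPM per kb) and medial library 3 (11.5 against 13.0 CPM per kb). In both lateral libraries Crabp1, at 6.43 and 6.41 CPM per kb, was above Crabp2.

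**Figure D2:**
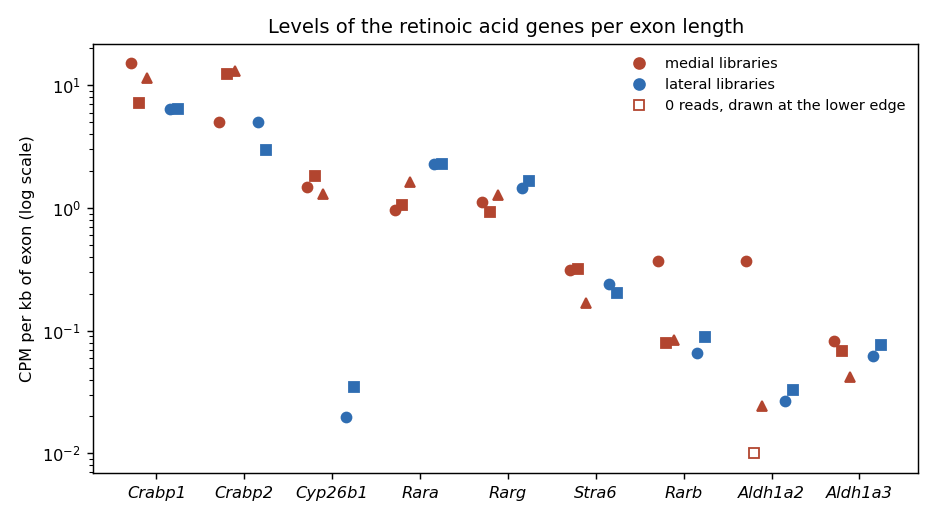
CPM per kb of exon (vertical axis, log scale) for the 9 genes in medial libraries, left of each gene, and lateral libraries, right; symbols are libraries as in the plot of CPM by library, and the open square at the lower edge is a count of 0. Crabp1 and Crabp2 were highest in both regions, and Cyp26b1 took the 3rd place in medial and the 9th in lateral cortex.

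Set against each other per kb of exon, the carriers Crabp1 (11.3 ± 3.91 in medial, SD, n = 3, and 6.42 ± 0.00906 in lateral cortex, SD, n = 2) and Crabp2 (10.1 ± 4.40 and 3.99 ± 1.43) were the highest members in both regions, and in medial cortex these did not differ beyond their spread. Below them in medial cortex came Cyp26b1 at 1.53 ± 0.265, Rara at 1.21 ± 0.360 and Rarg at 1.11 ± 0.170 CPM per kb, whose neighbours in that order overlapped. Stra6 followed at 0.265 ± 0.0848, Rarb at 0.178 ± 0.166, Aldh1a2 at 0.131 ± 0.206 and Aldh1a3 at 0.0643 ± 0.0205 CPM per kb, and each of these overlapped with the next. In lateral cortex Rara at 2.27 ± 0.0129 and Rarg at 1.56 ± 0.134 CPM per kb came next, without overlap between them or with the carriers. Stra6 had 0.222 ± 0.0255 CPM per kb there, Rarb at 0.0773 ± 0.0154 and Aldh1a3 at 0.0695 ± 0.00980 overlapped, and Cyp26b1 at 0.0273 ± 0.0105 CPM per kb was the lowest, at the level of Aldh1a2 at 0.0298 ± 0.00421. Exon lengths join all transcripts of a gene in the GENCODE annotation M21 of build GRCm38, while the reads were counted on mm9, so these levels are approximate between genes.

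Among the receptors, Rara and Rarg were at lower levels in all medial libraries and Rarb was high in 1 of them, and none passed the test. Rara, the widely expressed retinoic acid receptor, had 4.20, 4.58 and 7.09 CPM in medial (121, 131 and 255 reads), against 9.96 and 9.88 CPM in lateral libraries (655 and 532 reads). The lateral libraries lay within 1.01-fold of each other, and medial library 3 lay between them and the other medial libraries. For Rara the log2 fold change was −0.90 (SE 0.24, edgeR adjusted p = 0.0655), and it was −1.18 without medial library 3, where it passed (edgeR adjusted p = 0.0475) in a fit that called 3.01% of all genes tested.

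Rarg, which is best known from skin and cartilage, had 4.79, 3.95 and 5.40 CPM in medial, against 6.25 and 7.06 CPM in lateral libraries. The gap between the highest medial and the lowest lateral library was smaller than the spread within medial cortex. The log2 fold change of Rarg was −0.49 (SE 0.19, edgeR adjusted p = 0.136). Of the 10 cortical cell genes, 1 was higher (Emx2) and 2 were lower (Tbr1 and Neurod2) in medial cortex. Neurod2, a factor of differentiating cortical neurons, had 81.7, 158 and 204 CPM in medial, against 400 and 471 CPM in lateral libraries, the order of Rara within medial cortex. The part of the mix of cells in the receptor values was not tested.

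Rarb, the receptor gene that retinoic acid itself induces, had 1.94, 0.420 and 0.445 CPM in medial (56, 12 and 16 reads), against 0.350 and 0.464 CPM in lateral libraries (23 and 25 reads). Medial libraries 2 and 3 lay within the lateral range, and medial library 1 was over 4-fold above every other library. The log2 fold change was 1.17 (SE 0.74, edgeR adjusted p = 0.327), and 0.11 without medial library 1 (edgeR adjusted p = 0.879). In GENCODE M21, exons of Rarb overlap those of Top2b and Gm48162 on the opposite strand. Reads there cannot be told apart without strand, and this holds for none of the other 8 genes.

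**Figure D3:**
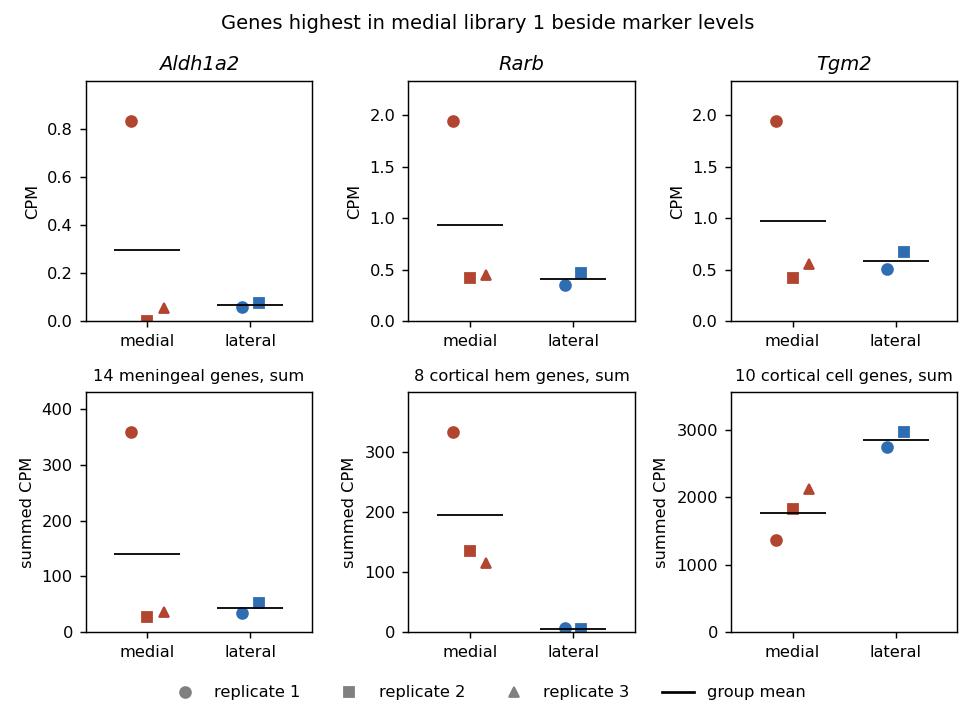
CPM of Aldh1a2, Rarb and Tgm2 (upper row) and summed CPM of marker lists (lower row) in medial libraries, left in each panel, and lateral libraries, right; a symbol is 1 library and a line the group mean. The 3 genes and the meningeal sum, at 359 CPM, were high in medial library 1 alone, the hem sum was above the lateral level in all medial libraries, and the sum of cortical cell genes was lowest in medial library 1.

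Aldh1a2, Rarb and the retinoic acid response gene Tgm2, a transglutaminase, shared this pattern. Tgm2 had 1.94, 0.420 and 0.556 CPM in medial, against 0.502 and 0.669 CPM in lateral libraries. The log2 fold change of Tgm2 was 0.71, and −0.23 without medial library 1. Of the meningeal genes, Col1a1 had 97.2, 0.874 and 3.17 CPM in medial, against 0.745 and 4.62 CPM in lateral libraries. Microglial genes summed to 37.8 CPM in medial library 1 and to between 15.7 and 22.8 CPM elsewhere. The part of meningeal or other cells in the values of Aldh1a2, Rarb and Tgm2 was not tested.

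Promoter sequence is shown for Rarb, whose retinoic acid response element is well known, and for Cyp26b1, the gene with the largest difference. Both stretches are the 250 bases before the RefSeq start of build GRCm38, 5′ to 3′ on the strand of the gene, at chr14:16575477-16575726 on the minus strand for Rarb and at chr6:84593811-84594060 on the minus strand for Cyp26b1. Capitals mark, in Rarb, a direct repeat of the receptor half-site with a spacer of 5 bases (DR5) and, in Cyp26b1, TATAAA.
Rarb: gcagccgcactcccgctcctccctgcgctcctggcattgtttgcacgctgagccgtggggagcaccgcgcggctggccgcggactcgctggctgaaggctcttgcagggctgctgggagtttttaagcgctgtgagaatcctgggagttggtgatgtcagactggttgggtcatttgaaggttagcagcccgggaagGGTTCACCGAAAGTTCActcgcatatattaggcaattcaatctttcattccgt
Cyp26b1: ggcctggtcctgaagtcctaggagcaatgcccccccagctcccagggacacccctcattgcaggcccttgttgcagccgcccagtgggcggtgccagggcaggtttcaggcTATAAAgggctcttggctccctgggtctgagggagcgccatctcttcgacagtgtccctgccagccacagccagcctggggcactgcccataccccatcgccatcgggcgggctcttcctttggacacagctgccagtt
Windows of 300 bases, from 250 before to 50 after each start, were searched on both strands for DR5, for direct repeats with spacers of 1 or 2 bases (DR1, DR2), for the half-site letters AGGTCA and GTTCA, which can lie within these repeats, and for TATAAA. Of the 9 genes, 7 matched a RefSeq entry, with 14 windows, and Aldh1a3 and Crabp2 did not. DR5 was found in 1 of the 14, that of Rarb, from position −53 to −37, and in 0.0974% of all 32851 windows. DR1 (0.222% of all windows) and DR2 (0.268%) were found in none of the 14. AGGTCA was found in 1 window each of Rara and Rarg and in 16.3% of all windows, and GTTCA in 1 each of Rara, Rarb and Stra6 and in 35.2%. TATAAA was found in the window of Cyp26b1, at −139 to −134, and in 13.6% of all windows.

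The rest of the retinoid pathway was followed in 4 lists of genes, with 56 symbols besides the 9, of which 53 were in the files and 33 were tested. Of the 33, 1 was higher and 2 were lower in medial cortex, beside 9.72% called among all genes. The median log2 fold change was −0.02, beside 0.01 for all genes tested. Medial and lateral libraries were fully separated in 13 of the 33, 6 with medial libraries higher and 7 with medial libraries lower, beside 53.3% of all genes.

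In the list for uptake and storage, with 7 tested, Rbp4 was higher in medial cortex. Rbp4, the carrier of retinol between cells, had 16.2, 5.74 and 3.92 CPM in medial, against 0.152 and 0.130 CPM in lateral libraries. Medial library 1 was the highest, and all medial libraries were far above the lateral ones. The log2 fold change was 5.88 (SE 0.97, edgeR adjusted p = 0.0318), and 5.05 without medial library 1 (edgeR adjusted p = 0.00725). It was called in 2 of the 5 fits that left out 1 library. Choroid plexus, tissue next to the medial cortex where Rbp4 and its partner Ttr are known to be made, had its genes at a summed 9.37 to 18.6 CPM in medial and 2.58 to 13.0 CPM in lateral libraries, and the median log2 fold change of its 5 tested genes was 2.39. Otx2 was called higher in medial cortex, and Clic6 (log2 fold change 2.39, edgeR adjusted p = 0.0959) and Folr1 (2.46, edgeR adjusted p = 0.0513) had all medial libraries higher without passing. Ttr, which made up much of the sum in medial library 3 and lateral library 2, had 0.659, 2.27 and 8.87 CPM in medial, against 0.943 and 10.4 CPM in lateral libraries. Aqp1 overlapped between the regions, and Kl, Kcnj13 and Prlr were at 0.167 CPM or less in every library. The 8 hem genes summed to 332, 136 and 115 CPM in medial, against 6.33 and 5.42 CPM in lateral libraries. The part of choroid plexus or of hem cells in the Rbp4 result was not tested.

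None of the 9 tested genes of synthesis and breakdown passed, and the most abundant had log2 fold changes close to 0. Of these 9, 1 had an edgeR p under 0.05 before adjustment and DESeq2 called 0, beside 32.2% and 21.7% of all genes tested. Rdh11, a retinal reductase, had 37.4 ± 0.923 CPM in medial (SD, n = 3) and 37.8 ± 1.18 CPM in lateral cortex (SD, n = 2), a log2 fold change of −0.02 (SE 0.08). Adh5, a medium-chain alcohol dehydrogenase, had 140 ± 7.98 CPM in medial (SD, n = 3) and 138 ± 2.91 CPM in lateral cortex (SD, n = 2), a log2 fold change of 0.02 (SE 0.08). Rdh10, the main enzyme from retinol to retinal in embryos, had a log2 fold change of 0.26 (SE 0.19, edgeR adjusted p = 0.386). Dhrs3, which turns retinal back into retinol and is a retinoic acid response gene, had 2.95, 1.57 and 1.56 CPM in medial, against 0.715 and 1.15 CPM in lateral libraries, with a log2 fold change of 1.12 (SE 0.40, edgeR adjusted p = 0.118).

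None of 14 receptor partners and coregulators passed either, while 4 had an edgeR p under 0.05 before adjustment and DESeq2 called 4, both near the shares over all genes (32.2% and 21.7%). Rxra and Rxrb, the partners of the retinoic acid receptors, had log2 fold changes of 0.14 (SE 0.11) and −0.13 (SE 0.09). The corepressor Ncor1, the most abundant of the list, had 417 ± 12.4 CPM in medial (SD, n = 3) and 411 ± 11.5 CPM in lateral cortex (SD, n = 2), and Nr2c2, an orphan receptor, had 223 ± 15.7 and 226 ± 1.34 CPM.

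Of 8 tested retinoic acid response genes, among them Rarb itself, 1 was lower and none was higher in medial cortex. Among all genes tested 5.1% were called lower and 4.62% higher, so 1 call in 8 is near the background. Meis1, a homeobox factor that retinoic acid induces in other embryonic tissues, had 1.11, 1.29 and 2.56 CPM in medial, against 7.79 and 10.8 CPM in lateral libraries. The medial libraries were all lower, with −2.45 on the log2 scale (SE 0.35, edgeR adjusted p = 0.0296) and between −2.94 and −2.20 with 1 library left out, called in 2 of those 5 fits. Its relative Meis2 had 136, 234 and 323 CPM in medial, against 532 and 543 CPM in lateral libraries, with no overlap but a log2 fold change of −1.22 that did not pass (SE 0.33, edgeR adjusted p = 0.0638). Nr2f2, an orphan receptor, had 16.3, 6.64 and 8.04 CPM in medial, against 3.15 and 3.34 CPM in lateral libraries (log2 fold change 1.67, SE 0.42, edgeR adjusted p = 0.0568). Without medial library 1 both passed (edgeR adjusted p = 0.0254 for Meis2 and 0.0228 for Nr2f2, in a fit that called 13.2% of all genes), at −0.95 and 1.18. All medial libraries were higher for Dhrs3 and Nr2f2 and lower for Meis1, Meis2 and Nr2f1, and these 5 of 8 are near the 53.3% of all genes without overlap. Meis1 and Meis2 are also expressed in subpallial cells, whose marker sums are given with Aldh1a3, and the part of such cells was not tested.

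**Figure D4:**
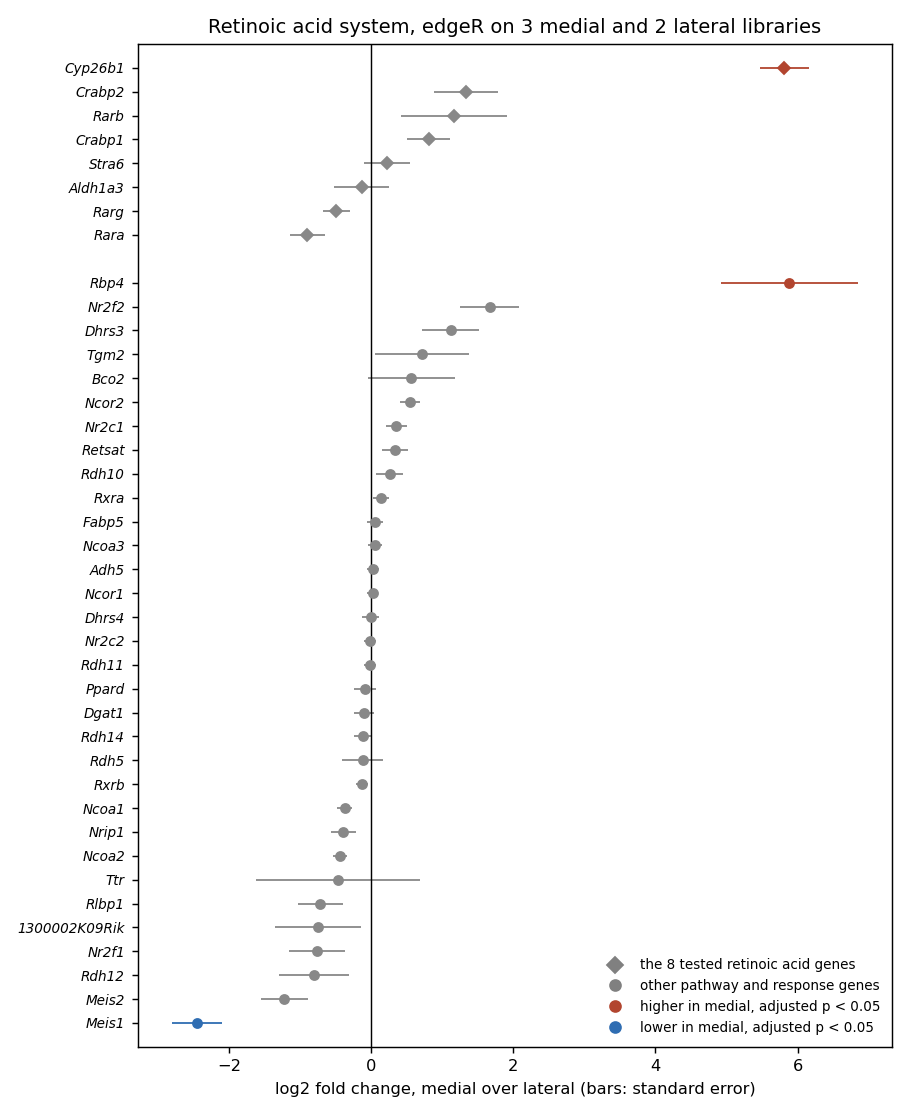
Log2 fold change of medial over lateral cortex (horizontal axis, bars are standard errors) for the 8 tested retinoic acid genes (diamonds, above) and other tested pathway and response genes (circles, below); colour marks an adjusted p under 0.05. Cyp26b1 and Rbp4 lay above 5, Meis1 below −2, and the abundant enzymes and receptor partners close to 0.

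The genes whose profiles over the 5 libraries were most like each of the 8 were found by the root mean square difference between centred log2 CPM, among tested genes with a mean of at least 1 CPM. For Cyp26b1 they were the hyaluronan synthase gene Has2 (0.25), the secreted protease gene Htra1 (0.32) and Lect1 (0.42). Has2 had 4.06, 6.43 and 4.70 CPM in medial, against 0.0760 and 0.149 CPM in lateral libraries, and shared the peak in medial library 2. For Rara they were Peli2, Insm1 and Chrna7 (0.07 to 0.08), and for Rarg Fgfr2, Galnt13 and Cpped1 (each 0.05). For Rarb they were Dlk1 (0.06), Akr1e1 and Lypd1 (each 0.13), and Dlk1 had 8.95, 1.99 and 2.20 CPM in medial, against 1.55 and 2.17 CPM in lateral libraries. For Crabp1 they were Prelid2, Vamp8 and Arc (0.08 to 0.10), and for Crabp2 Col9a2, Prph and Cd63-ps (0.22 to 0.24). Aldh1a3 was nearest to Arhgap27 (0.06), Snora2b (0.10) and Orai3 (0.12), and Stra6 to Nox4 (0.07), Snord87 (0.10) and Cdc42ep2 (0.11).

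**Figure D5:**
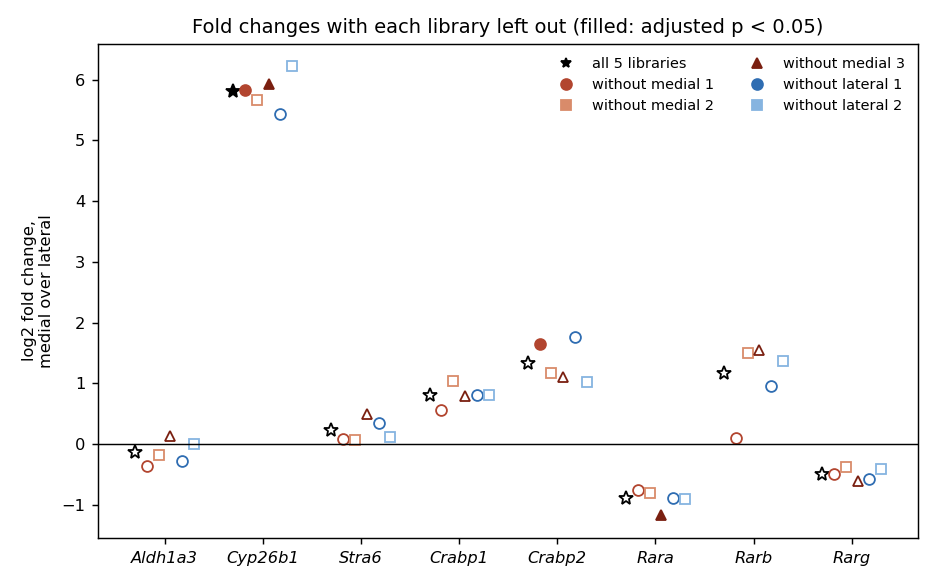
Log2 fold change of medial over lateral cortex (vertical axis) for the 8 tested genes in the fit of all 5 libraries (stars) and in fits that left out each library; filled symbols had an adjusted p under 0.05. Cyp26b1 stayed between 5.43 and 6.22, Rarb was at 0.11 without medial library 1, and Aldh1a3 lay on both sides of 0.

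Leaving out single libraries moved the genes differently. Crabp2 ranged from 1.02 to 1.76, Rara from −1.18 to −0.75, and Rarg from −0.60 to −0.38, each with 1 direction throughout. Rarb ranged from 0.11 to 1.55, with the lowest value in the fit without medial library 1. In these fits 13.2% of all genes passed without medial library 1, 0% without medial library 2, 3.01% without medial library 3, 0.108% without lateral library 1 and 0% without lateral library 2. DESeq2 on the 5 libraries called 21.7% of genes and 3 of the 8: Cyp26b1 and, unlike edgeR, Crabp2 (log2 fold change 1.34, DESeq2 adjusted p = 0.0170) and Rara (−0.90, DESeq2 adjusted p = 0.0120). Without medial library 1, DESeq2 called 19.7% of genes and the same 3. The names of the deposited files carry a tag that ties medial library 2 to lateral library 1 and medial library 3 to lateral library 2, and whether it marks a shared animal is not stated. With that tag as a block, edgeR called 33% of genes and 5 of the 8: Cyp26b1, Crabp1 (adjusted p = 0.0399), Crabp2 (2.84e-05), Rara (0.00487) and Rarg (0.0309).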

How the data were processed

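Polyadenylated RNA of 3 medial and 2 lateral cortex samples was sequenced without strand, per the labels' protocols. The deposited files hold whole-number read counts per gene symbol that the authors did not normalise. The submitters' processing notes name mm9, BWA, STAR and HTSeq; versions and settings are not given in the sources used here. Reads that HTSeq assigned to no gene (23.1% to 28.7% of each file) were left out of library sizes and tests. Each sample's region is that of its label. Genes were filtered with filterByExpr (count 10, total 15), TMM-scaled and fitted by edgeR 4.0.16 under R 4.3.3 (glmQLFit in the form introduced with edgeR 4, glmQLFTest, group as the only term, 3 residual degrees of freedom, Benjamini-Hochberg adjustment over 16229 genes, threshold 0.05). The procedure was tested on simulated data, where it missed many 2-fold changes and the share of false calls was above the threshold. Log2 CPM used a prior count of 2. Intervals and floors (3 reads) cover counting error only.

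The 9 genes, the lists and the tests were chosen with earlier results of these data known. The rule for named genes took the 9 genes, every pathway gene past the threshold (or the 2 most abundant of a list), markers, and the 3 genes with the most similar profile. Other genes, such as Dhrs3, Meis2, Nr2f2, Rdh10, Rdh11, Rxra, Rxrb, Tgm2, Neurod2, Neurod6 and Wnt8b, were named after their values were seen. Alternatives covered other scalings, filters and tests (DESeq2 1.42.0, limma-voom with limma 3.58.1), thinning, blocks and leaving out each library. Fits with 1 lateral library assume that it varies like the medial ones. Promoter sequences are from RefSeq (GRCm38.p6). Some genes of the lists enter the counts and sums but are not reported here by name.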

Additional observations from a re-analysis of the deposited data

How the results depend on the processing

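Of the 8 tested genes, 7 kept their direction in every alternative, and Aldh1a3 did not: its log2 fold change ranged from −0.35 to 0.13 with 1 library left out, above 0 without medial library 3 (0.13) and lateral library 2 (0.00), and was 0.13 with a replicate block by number. Cyp26b1 passed in 14 of 17 alternatives, with values from 5.43 to 6.22, and failed in the 3 fits that left out medial library 2 or either lateral library. Leaving out 1 library gave between 0 and 2164 calls over all genes, between 0 and 2 among the 8 genes and between 0 and 8 among the 33 other pathway and response genes. At 0 calls in edgeR (without medial library 2 or lateral library 2), 4035 and 2456 genes had an unadjusted p under 0.05. DESeq2 called 3527 genes overall (21.7%), 3 of the 8 (Cyp26b1 and Crabp2 higher, Rara lower in medial cortex) and 8 of the 33. DESeq2 without medial library 1, added after the data were seen, called 3041, 3 and 9. Whether the titles' replicate numbers pair the samples is not stated in the labels. Deviations from the group means of medial and lateral libraries with 1 number had r = 0.03 and −0.38 over genes. The replicate block by number gave 1076 calls. A tag in the deposited names ties medial library 2 to lateral library 1 and medial library 3 to lateral library 2 (r = 0.38 in each). The deviations of the 2 lateral libraries differ only in sign, so each medial library had the same r with both, of opposite sign. For medial library 2 the −0.38 by number and the 0.38 by tag are thus 1 value. Deviations of the medial libraries are tied by the centring too, and these r cannot settle which libraries pair. The replicate block by that tag gave 5361 calls (33% of genes), 5 of the 8 (Cyp26b1, Crabp1 and Crabp2 higher, Rara and Rarg lower in medial cortex) and 11 of the 33. Depth limits Aldh1a2, Aldh1a1, Cyp26a1 and Cyp26c1, which had 34 reads or fewer over all libraries, and the lateral level of Cyp26b1.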
